A study of Homo sapiens with 6 samples.

Results

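The 36 genes described here encode the folding machinery of the endoplasmic reticulum (ER) and the unfolded protein response. They were matched by symbol in a table of 57820 genes, where each symbol occurred once, and ERO1L is the older symbol of ERO1A. By role, 12 were luminal chaperones and co-chaperones, 5 enzymes of oxidative folding, 9 genes of ER-associated degradation, 4 genes of the translocon and signal peptidase, and 6 sensors and transcription factors. All 36 passed the filter on low counts, which kept 15605 genes. The cells were M14, a human melanoma line, stably carrying a doxycycline-inducible shRNA against STAG2, a subunit of the cohesin complex. In the study, loss of STAG2 was set against changes in genome folding and gene expression. WT denotes these shRNA-carrying cells grown without doxycycline for 5 days and KD the cells grown with it for the same time, both maintained in puromycin, with 3 libraries per group. KD and WT therefore differed in the drug as well as in STAG2, and since no cells without the shRNA were given doxycycline here, the effects of the drug and of the knockdown cannot be told apart. All libraries came from 1 cell line and 1 shRNA, and p-values measure the spread between these libraries. The labels do not name separate cultures, while the study's figure legend describes its replicates as biologically independent.

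Secreted and membrane proteins enter the ER through the SEC61 channel, fold with the help of chaperones such as BiP (HSPA5) and of disulfide isomerases, and are returned to the cytosol for degradation when folding fails. When unfolded proteins accumulate, 3 sensors in the ER membrane respond. IRE1 (ERN1) splices the mRNA of XBP1, ATF6 is cleaved in the Golgi to release a transcription factor, and PERK (EIF2AK3) phosphorylates eIF2-alpha, which slows translation while favouring that of ATF4. Counts per gene do not distinguish spliced from unspliced XBP1, nor do they show cleavage or phosphorylation of the sensors.

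The transcription factors ATF6 and XBP1 are known to act through short promoter elements. The promoters of HSPA5, XBP1 and CREB3L2 are shown because these were the genes that passed the test when libraries were paired by replicate number, and that of HERPUD1 because it held both an ER stress element and an ATF4 site. The sequences are the 250 bases before each RefSeq start on GRCh38.p14, on the gene's own strand, with capitals for the fixed bases of a matched motif.
HSPA5 (chr9:125241344-125241593, minus strand): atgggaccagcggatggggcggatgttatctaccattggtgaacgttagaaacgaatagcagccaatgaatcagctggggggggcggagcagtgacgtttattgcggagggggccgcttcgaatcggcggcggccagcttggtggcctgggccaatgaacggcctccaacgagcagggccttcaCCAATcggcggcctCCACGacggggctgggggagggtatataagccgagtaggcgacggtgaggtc
XBP1 (chr22:28800570-28800819, minus strand): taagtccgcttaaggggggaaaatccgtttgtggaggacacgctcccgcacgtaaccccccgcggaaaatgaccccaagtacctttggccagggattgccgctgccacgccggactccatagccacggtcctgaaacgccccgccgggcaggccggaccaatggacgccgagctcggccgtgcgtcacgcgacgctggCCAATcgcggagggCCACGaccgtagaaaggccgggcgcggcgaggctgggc
CREB3L2 (chr7:138002087-138002336, minus strand): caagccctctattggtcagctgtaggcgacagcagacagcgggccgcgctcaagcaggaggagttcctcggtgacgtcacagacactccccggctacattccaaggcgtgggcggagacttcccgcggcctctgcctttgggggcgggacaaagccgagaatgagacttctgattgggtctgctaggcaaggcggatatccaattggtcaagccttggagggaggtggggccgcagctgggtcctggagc
HERPUD1 (chr16:56931892-56932141, plus strand): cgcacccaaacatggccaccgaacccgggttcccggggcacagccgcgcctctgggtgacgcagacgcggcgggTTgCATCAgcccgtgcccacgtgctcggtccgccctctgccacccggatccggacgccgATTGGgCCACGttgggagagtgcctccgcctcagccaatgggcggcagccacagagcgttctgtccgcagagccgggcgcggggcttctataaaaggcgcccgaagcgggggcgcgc

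The capitals in HSPA5 and XBP1 mark the ER stress element ERSE, written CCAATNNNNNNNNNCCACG, at bases -66 to -48 and -52 to -34 from the start. In HERPUD1 they mark the related ERSE-II, ATTGGNCCACG, at -117 to -107, and an ATF4 site, TGATGNAA, on the other strand at -176 to -169. No match was found in the window of CREB3L2. Both strands were searched for exact matches of the fixed bases only, over windows of 250 bases before and 50 bases after the start. An entry was found for 33 of the 36 genes, the exceptions being PDIA3, DERL1 and DERL3. ERSE occurred in 6 of the 33 windows (18.2%; CALR, CANX, CRELD2, HSP90B1, HSPA5 and XBP1) and in 22 of all 27305 windows (0.0806%). ERSE-II occurred in 3 (9.09%; HERPUD1, HYOU1 and SDF2L1) against 15 of all windows (0.0549%). The element TGACGTGG, known as UPRE, occurred in 2 (6.06%; DNAJC10 and HYOU1) against 217 windows (0.795%), and its match in HYOU1 overlapped an ERSE-II. The ATF4 site occurred in 1 (3.03%) against 1003 windows (3.67%). All windows include those of the 33 genes. Since the elements were already known for this response, these shares are described only and were not tested. The 9 genes with an ERSE or ERSE-II had a median log2 fold change between KD and WT of 0.16, with libraries paired. The 24 genes with no exact match to either in the window had a median of 0.08. Inexact or more distant elements were not searched for.

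Library totals ran from 24895998 to 35181733 expected counts, at which 3 counts equalled 0.087 to 0.112 CPM, counts scaled to the size of the library. STAG2 was below every WT library in every KD library, at 66.5, 34.8 and 28.8 CPM in WT and 15.96, 7.31 and 6.70 CPM in KD (log2 fold change -2.12 ± 0.43 SE, edgeR adjusted p = 0.0342). WT replicate 1 stood apart from the other libraries, and KD replicate 1 did so in part. Genes with counts above 0 were most in WT replicate 1 (20646) and fewest in KD replicate 1 (16028). In WT replicate 1 the mitochondrial share of counts was 5.07%, beside 2.12% to 2.94% elsewhere, and the summed level of 10 melanocyte lineage markers, all tested, was 6532 CPM there against 2087 and 2073 CPM in the other WT libraries and 2782, 1505 and 1424 CPM in KD. Summed markers of other cell types reached at most 93.6 CPM for fibroblasts (mostly COL1A1), 45.6 CPM for keratinocytes, 5.72 CPM for endothelial cells and 3.70 CPM for leukocytes, with CD3E at 0 throughout. The part of these differences in the results below was not tested, and in bulk libraries a change in the share of cells and a change of RNA per cell cannot be told apart. Same-numbered WT and KD libraries deviated together from their group means. No label states a pairing, so fold changes are given without it and also with the replicate number as a block (paired). That block was chosen from these same data, and the edgeR calls with pairing rest on it. Throughout, values are CPM after TMM scaling, fold changes are log2 of KD over WT with their SE, n is 3 libraries per group, and adjusted p-values are Benjamini-Hochberg values over all 15605 genes from edgeR's quasi-likelihood test.

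Upon STAG2 KD, measured differences were small for most of the 36 genes. Without pairing, none of the 36 passed an adjusted p of 0.05, against 404 of all tested genes (2.59%). DESeq2 and limma-voom also gave 0 at that threshold. DESeq2 passed more of all tested genes than edgeR, by the count in the last section, and that of limma-voom is not given here. An unadjusted edgeR p under 0.05 was reached by 2 genes (5.56%), against 14.8% of all tested genes, and with pairing by 13 (36.1%), against 22.9%. With pairing, HSPA5 and XBP1 rose, which is 2 of 36 (5.56%) against 5.10% of all tested genes, and CREB3L2 fell, 1 of 36 (2.78%) against 4.42%. These counts are too small to set the shares apart from the background. The median log2 fold change was 0.09 without pairing, with 20 genes above 0 and 16 below, beside -0.03 over all tested genes. With pairing the absolute log2 fold change was under 0.5 for 28 genes, and the 95% interval lay within -1 to 1 for 31. Without pairing the interval lay within -1 to 1 for 25, so larger differences were not excluded for the rest. Their summed level was 6565, 10060 and 9754 CPM in WT and 7228, 11130 and 10570 CPM in KD, and these ranges overlapped.

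**Figure D1:**
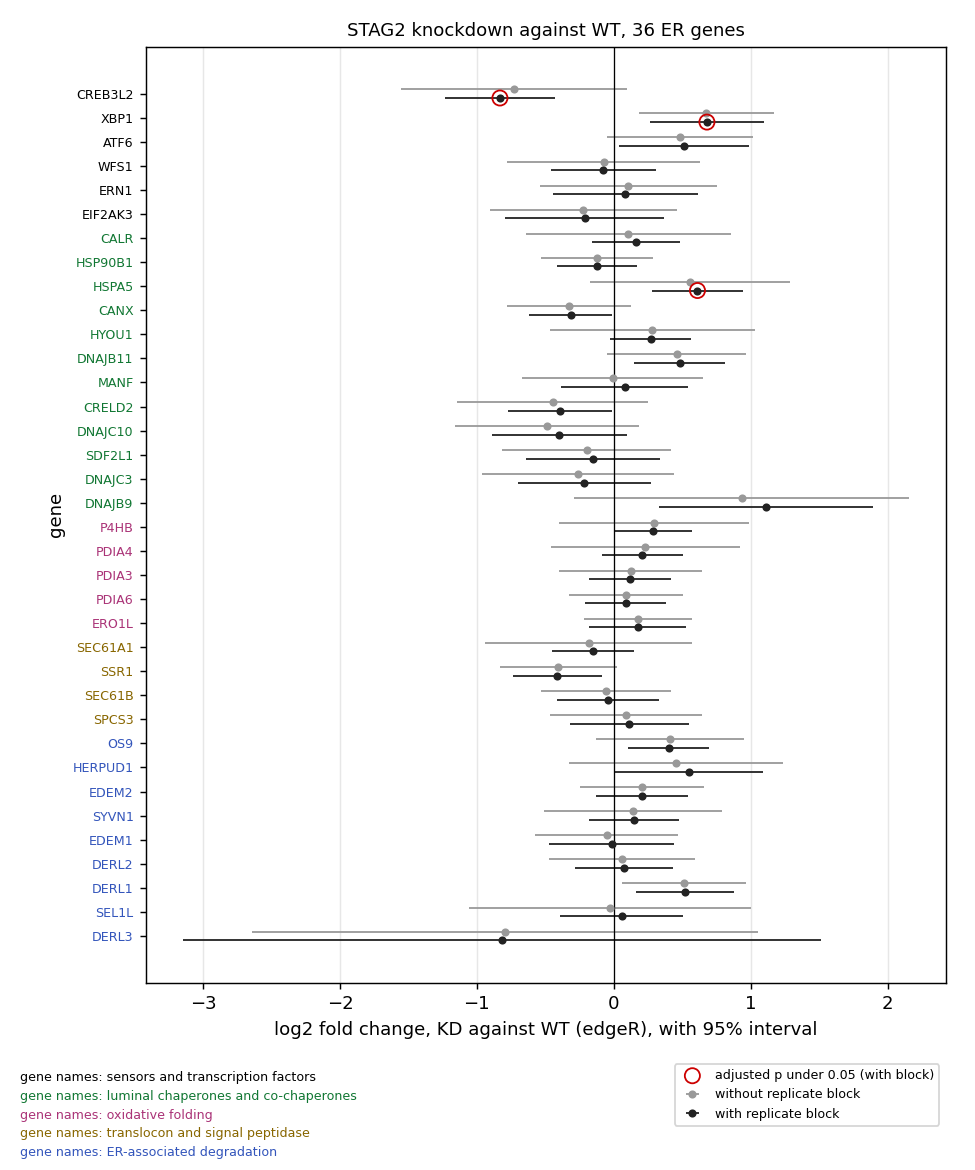
Log2 fold change of each of the 36 genes, KD against WT, from edgeR without (grey) and with (black) the replicate block; bars are 95% intervals and red circles mark an adjusted p under 0.05 with the block. The 3 genes that are circled are CREB3L2 on the left and XBP1 and HSPA5 on the right, and the interval of DERL3 is the widest.

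Compared library by library, every KD library lay above every WT library for 4 genes (11.1%; XBP1, DNAJB11, DERL1 and ERO1L), against 11.8% of all tested genes, and below for 2 (5.56%; CANX and SSR1), against 10.5%. Within same-numbered pairs, KD was above WT in all 3 for 14 genes (38.9%), against 23.0% of all tested genes, and below in all 3 for 8 (22.2%), against 22.8%. The other 14 genes had pairs in both directions. The 14 that were higher in each pair were HSPA5, HYOU1, DNAJB9, DNAJB11, all 5 oxidative folding genes, SYVN1, EDEM2, DERL1, OS9 and XBP1. Apart from HSPA5 and XBP1, none of these passed the edgeR test with or without pairing.

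**Figure D2:**
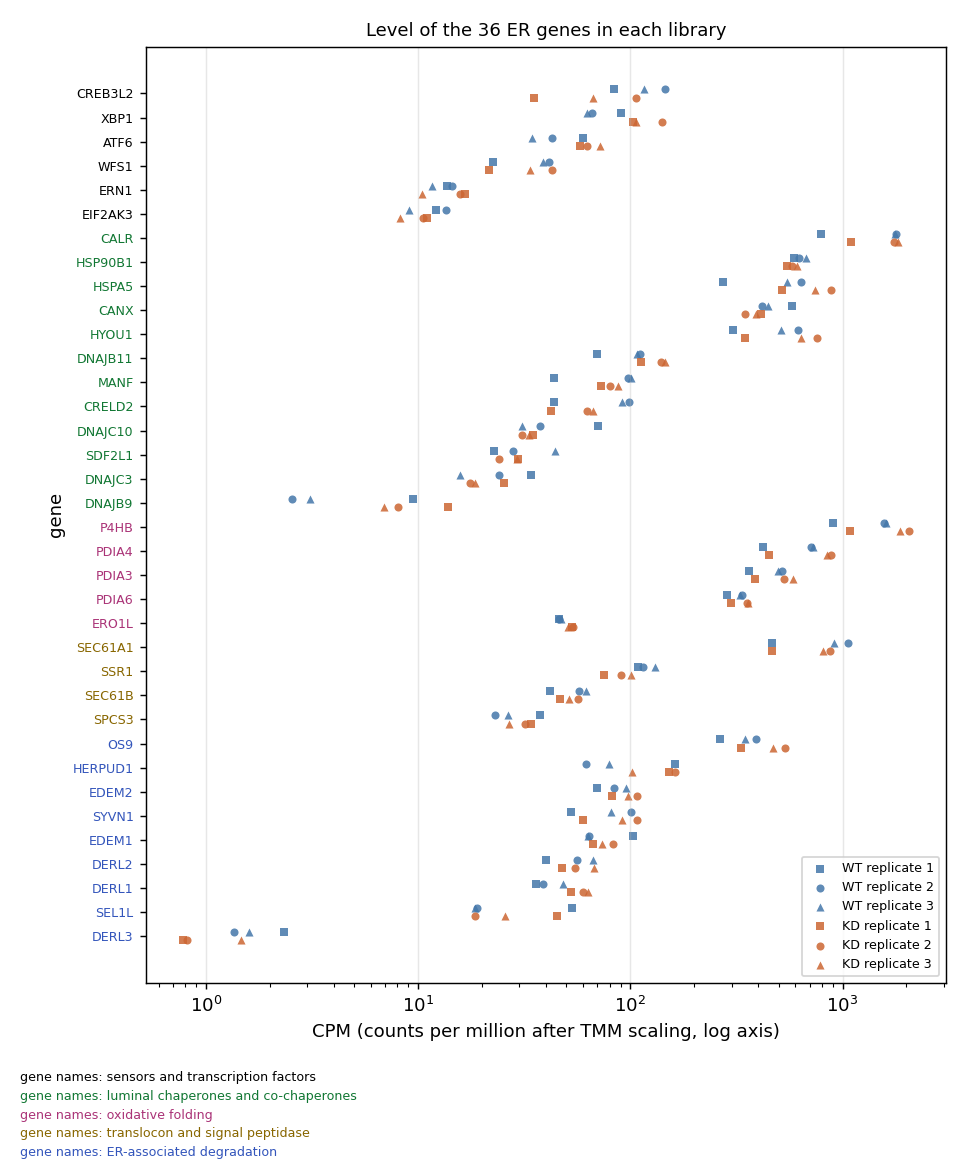
Level of each gene in each library in CPM after TMM scaling, on a log axis, WT in blue and KD in orange, with squares, circles and triangles for replicates 1, 2 and 3. The levels ran from 0.778 CPM for DERL3 in KD replicate 1 to 2066 CPM for P4HB in KD replicate 2, and replicate 1 lay to one side of the others for many genes in both groups.

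Among the luminal chaperones, HSPA5 (ENSG00000044574, GRCh37 chr9:127997132-128003661, minus strand) encodes BiP, the main Hsp70-type chaperone of the ER and a regulator of the 3 sensors. Its level was 273.1, 638.6 and 545.7 CPM in WT and 518.3, 884.0 and 743.0 CPM in KD. KD replicate 1 lay below WT replicates 2 and 3, so the groups overlapped, yet KD exceeded WT within each pair, by 0.92, 0.47 and 0.45 on the log2 scale. The log2 fold change was 0.56 ± 0.33 without pairing (edgeR adjusted p = 0.494) and 0.61 ± 0.15 with it (95% interval 0.28 to 0.94, edgeR adjusted p = 0.0283). The unpaired value moved with single libraries, to 0.27 without WT replicate 1 and 0.80 without WT replicate 2. Without the replicate 1 pair the paired value was 0.47 (edgeR adjusted p = 0.0472).

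HSP90B1, the ER form of Hsp90, did not pass in either fit. It was at 588.6, 624.6 and 675.3 CPM in WT and 545.2, 579.7 and 611.1 CPM in KD, with overlapping groups and a paired log2 fold change of -0.12 (95% interval -0.41 to 0.17, edgeR adjusted p = 0.658). HSPA5 and HSP90B1, both with an ERSE in the promoter window, thus had intervals on paired fold changes that did not overlap. The difference between these genes was not itself tested.

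The other luminal genes did not pass the edgeR test in either fit. DNAJB11, a J-domain co-chaperone of BiP, was at 69.9, 111.5 and 107.3 CPM in WT and 112.2, 139.7 and 145.4 CPM in KD. All its KD libraries lay above all WT libraries, KD replicate 1 only just above WT replicate 2 (paired log2 fold change 0.48, edgeR adjusted p = 0.0742). DNAJB9, another such co-chaperone, had the largest fold change of the 36 genes at a low level, 9.43, 2.55 and 3.10 CPM in WT and 13.9, 8.02 and 6.89 CPM in KD. Its WT replicate 1 lay above KD replicates 2 and 3, and the paired log2 fold change was 1.11 (95% interval 0.33 to 1.90, edgeR adjusted p = 0.078). HYOU1, an exchange factor and chaperone that works with BiP, was higher in KD in each pair, with a paired log2 fold change of 0.27 (edgeR adjusted p = 0.264).

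Of the lectin chaperones, which hold glycoproteins during folding, CANX was lower in all KD libraries (411.9, 348.3 and 389.4 CPM) than in all WT libraries (576.6, 417.2 and 446.5 CPM), with a paired log2 fold change of -0.31 (edgeR adjusted p = 0.204). CALR was the most abundant of the 36 genes per length and was at 790.8, 1779 and 1772 CPM in WT and 1096, 1751 and 1824 CPM in KD. Only replicate 1 departed from the rest for CALR, in both groups. CRELD2 and MANF, secreted proteins known to be induced by ER stress, had paired log2 fold changes of -0.39 and 0.08, and the remaining co-chaperones DNAJC3, DNAJC10 and SDF2L1 ranged from -0.40 to -0.15.

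**Figure D3:**
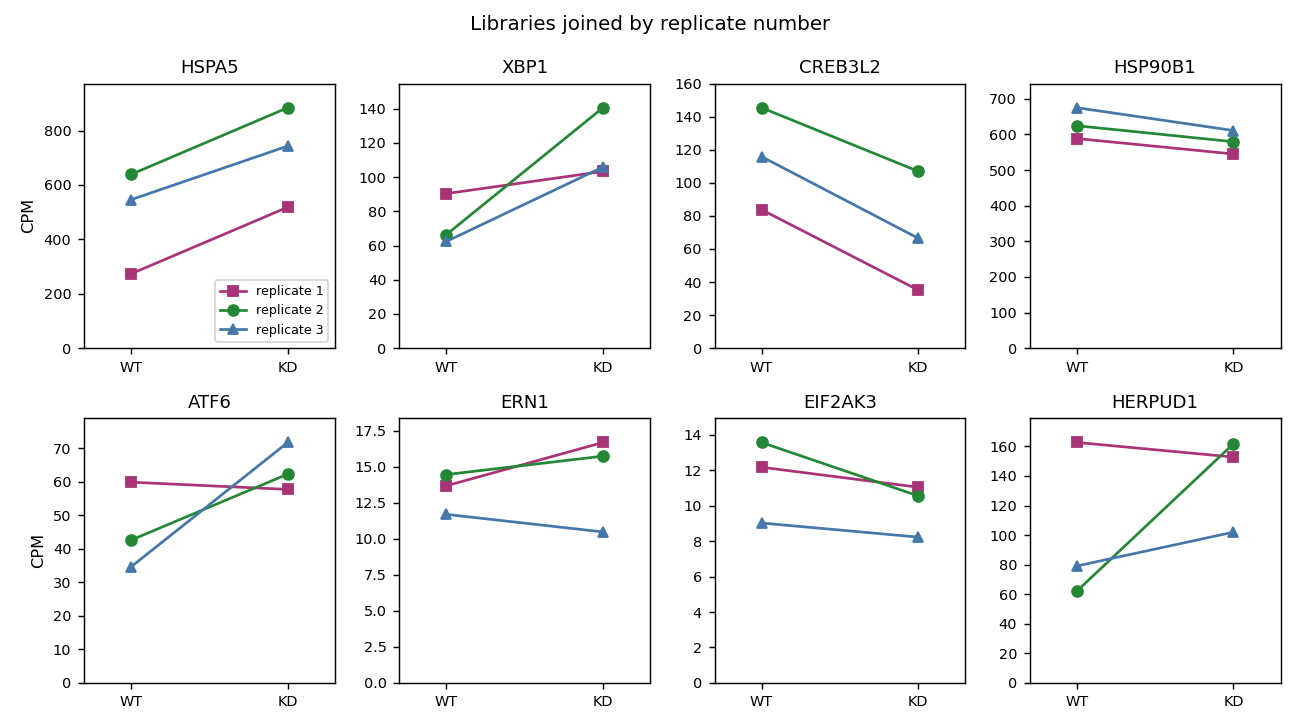
CPM of 8 of the genes in WT and KD, with lines joining libraries of the same replicate number; each axis starts at 0. The lines rise in all 3 pairs for HSPA5 and XBP1 and fall in all 3 for CREB3L2, HSP90B1 and EIF2AK3, while those of ATF6, ERN1 and HERPUD1 cross or differ in direction.

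The 5 genes of oxidative folding lay above WT in each pair, all with small differences. P4HB, PDIA3, PDIA4 and PDIA6 are disulfide isomerases and ERO1L reoxidises them. Paired log2 fold changes ran from 0.09 for PDIA6 to 0.29 for P4HB (95% interval 0.01 to 0.57), and edgeR adjusted p-values from 0.208 to 0.765. For ERO1L the libraries of a group were close together, at 46.1, 46.3 and 47.3 CPM in WT and 53.3, 53.6 and 51.0 CPM in KD, so the groups did not overlap, at a ratio of means of 1.13. P4HB was at 900.3, 1568 and 1610 CPM in WT and 1080, 2066 and 1862 CPM in KD, where the gap between replicate 1 and the others was larger than that between groups.

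None of the 9 genes of ER-associated degradation passed the edgeR test. DERL1, a membrane protein of the retrotranslocation machinery, was higher in all KD libraries (52.8, 60.2 and 63.0 CPM) than in all WT libraries (35.95, 38.9 and 48.4 CPM), with a paired log2 fold change of 0.52 (95% interval 0.16 to 0.88, edgeR adjusted p = 0.0748). OS9, a lectin that delivers misfolded glycoproteins to the HRD1 ligase, was at 265.6, 392.6 and 346.1 CPM in WT and 333.3, 533.2 and 468.6 CPM in KD, higher in each pair but with overlapping groups (paired log2 fold change 0.40, edgeR adjusted p = 0.0924). HERPUD1, a scaffold of the HRD1 complex, was at 162.7, 62.02 and 79.1 CPM in WT and 152.8, 161.8 and 102.0 CPM in KD. Its pairs differed widely, at -0.09, 1.38 and 0.37 on the log2 scale, and the paired log2 fold change was 0.55 (95% interval 0.01 to 1.09, edgeR adjusted p = 0.212). This value moved with single pairs, to 0.88 without the replicate 1 pair (edgeR adjusted p = 0.045) and 0.14 without the replicate 2 pair (edgeR adjusted p = 0.914).

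SYVN1, which encodes the HRD1 ubiquitin ligase, and its partner SEL1L had paired log2 fold changes of 0.15 and 0.06, and the mannosidase-like proteins EDEM1 and EDEM2 of -0.02 and 0.21. SEL1L stood out by library rather than by group, at 53.4 and 45.1 CPM in replicate 1 of WT and KD and 18.5 to 25.7 CPM in the other 4 libraries. DERL2 gave 0.07. DERL3 was at 0.778 to 2.35 CPM, and its paired interval of -3.15 to 1.52 included large differences in both directions.

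The translocon genes also did not pass. SSR1, a subunit of the translocon-associated protein complex, was lower in every KD library (75.5, 90.5 and 101.0 CPM) than in every WT library (108.3, 115.1 and 130.2 CPM), with a paired log2 fold change of -0.41 (95% interval -0.73 to -0.09, edgeR adjusted p = 0.113). SEC61A1 and SEC61B, subunits of the protein channel, had paired values of -0.15 and -0.04, and SPCS3 of the signal peptidase 0.12 (edgeR adjusted p = 0.575, 0.924 and 0.80).

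Of the sensors and transcription factors, XBP1 (ENSG00000100219, GRCh37 chr22:29190543-29196585, minus strand), the transcription factor whose mRNA IRE1 splices, was at 90.4, 66.3 and 62.4 CPM in WT and 103.3, 140.6 and 105.9 CPM in KD. Every KD library lay above every WT library, and replicate 1 showed the smallest gap within a pair (0.19 on the log2 scale, beside 1.08 and 0.76). The mean was 73.0 ± 15.1 CPM (SD, n = 3) in WT and 116.6 ± 20.8 CPM in KD. The log2 fold change was 0.68 ± 0.22 without pairing (edgeR adjusted p = 0.17) and 0.68 ± 0.19 with it (95% interval 0.27 to 1.096, edgeR adjusted p = 0.0472). In edgeR this call was near the threshold. The paired value had an edgeR adjusted p of 0.0548 with upper-quartile scaling and 0.328 without the replicate 2 pair. It was 0.0677 without the replicate 3 pair and 0.00727 without the replicate 1 pair, also in edgeR. Blocked DESeq2 and limma-voom, chosen after seeing the data, gave adjusted p = 0.00927 and 0.00628, in fits that passed more of all tested genes.

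CREB3L2 (ENSG00000182158, GRCh37 chr7:137559725-137686832, minus strand) encodes a transcription factor that is anchored in the ER membrane and released by proteolysis, known for the control of secretory pathway genes. It was at 83.8, 145.5 and 115.9 CPM in WT and 35.1, 107.0 and 66.5 CPM in KD. KD was lower within each pair, with log2 ratios of -1.24, -0.44 and -0.80, although KD replicate 2 lay above WT replicate 1. The log2 fold change was -0.73 ± 0.37 without pairing (edgeR adjusted p = 0.416) and -0.83 ± 0.18 with it (95% interval -1.23 to -0.43, edgeR adjusted p = 0.0176). The unpaired value was -0.40 without KD replicate 1 and -1.18 without KD replicate 2. Without the replicate 1 pair the paired value was -0.61 (edgeR adjusted p = 0.0405).

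The genes of the 3 sensors did not pass the test. ATF6 was at 59.9, 42.6 and 34.6 CPM in WT and 57.7, 62.3 and 71.7 CPM in KD (paired log2 fold change 0.52, 95% interval 0.04 to 0.99, edgeR adjusted p = 0.178). Its WT replicate 1 lay above KD replicate 1. The paired value was 0.81 without that pair (edgeR adjusted p = 0.0295) and 0.23 without the replicate 3 pair (edgeR adjusted p = 0.742). ERN1 was at 13.7, 14.5 and 11.7 CPM in WT and 16.7, 15.7 and 10.5 CPM in KD, and EIF2AK3 at 12.2, 13.6 and 9.03 CPM in WT and 11.1, 10.6 and 8.23 CPM in KD. Both overlapped between groups, with paired log2 fold changes of 0.08 (95% interval -0.45 to 0.62) and -0.21 (-0.79 to 0.37). WFS1, an ER membrane protein mutated in Wolfram syndrome, gave -0.08 (edgeR adjusted p = 0.859).

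The replicate number went with much of the spread among the 36 genes. Replicate 1 lay on the same side of the mean of replicates 2 and 3 in both groups for 30 genes (83.3%), below it for 21 and above it for 9. Over all tested genes this was 66.4%. For HSPA5, replicate 1 was lower, at log2 ratios of -1.12 in WT and -0.65 in KD, whereas SEL1L was higher in replicate 1 by 1.49 and 1.01. XBP1 was among the genes on opposite sides, at 0.49 in WT and -0.25 in KD.

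**Figure D4:**
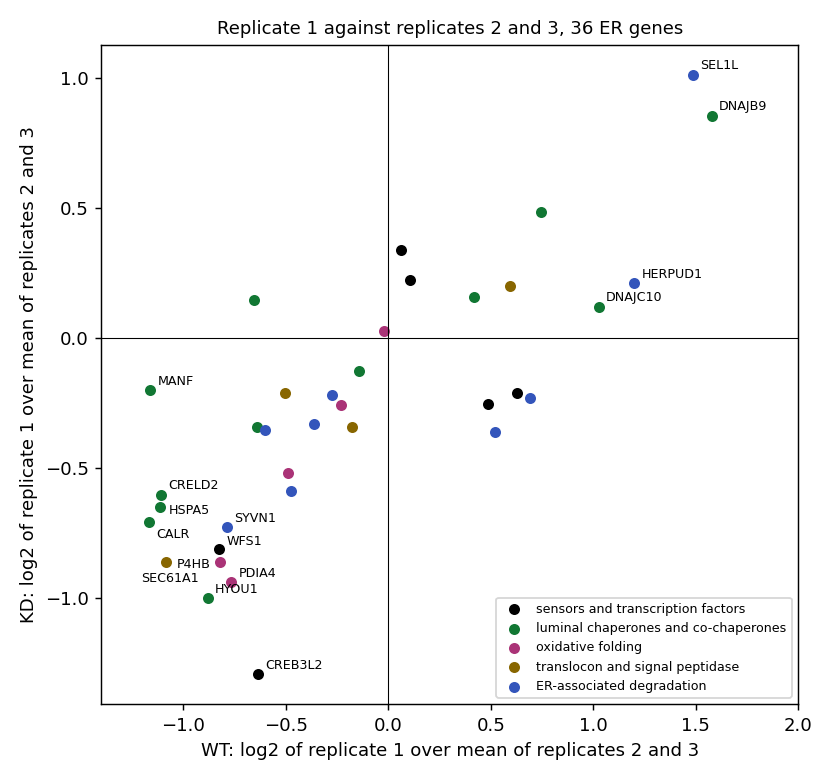
Log2 ratio of replicate 1 to the mean of replicates 2 and 3 for each of the 36 genes, WT on the horizontal and KD on the vertical axis, coloured by role. The lower left part holds the 21 genes that were lower in replicate 1 of both groups, and the upper right the 9 that were higher.

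Between genes, levels were compared per kilobase of the canonical transcript. In WT, CALR (761.2 CPM per kb) and P4HB (557.9) were highest, followed by SEC61A1 (228.0), HSP90B1 (226.3) and PDIA4 (223.3), and the lowest were ERN1 (1.68) and DERL3 (0.573). HSPA5 was at 123.9 in WT and 182.4 in KD, ranks 9 and 6 of the 36. The transcript lengths came from a newer annotation than the counts, so neighbours in this order were not told apart. Of the 36 genes, 21 share exon positions with another gene of the table, and 8 do so with a gene at 5% or more of their own level, namely CRELD2, DERL1, DERL2, DERL3, DNAJB11, OS9, SEC61A1 and SYVN1. The overlapping gene was far above the member for DERL3, with SMARCB1 at 13890% of its level on the opposite strand, and for SYVN1, with FAU at 764.9% on the same strand and MRPL49 at 242.6% on the opposite one. For the other 6 it was at 8.43% (DERL1) to 55.4% (CRELD2). HSPA5, XBP1 and CREB3L2 share none. The library kit was directional, but the strand setting of the counting is not given in the sources used here, so DERL3 could hold many reads of SMARCB1. For SYVN1, FAU lies on the same strand, so no strand setting would tell their reads apart where exons overlap. Its values could also hold many reads of these neighbours.

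Other genes of the same pathways were described from 7 lists of 144 genes, 143 of them tested. Without pairing 3 passed (2.10%, against 2.59% of all tested genes). With pairing 21 were higher (14.7%, against 5.10%) and 2 lower (1.40%, against 4.42%). Of the 21, 10 belong to the ATF4 and CHOP arm, and another is CREB3L3, whose p is not read, as given below. Of 32 other ER folding genes, 5 rose (15.6%) and 1 fell (3.12%) with pairing. The largest rise was that of SIL1, an exchange factor of BiP, at 43.9, 39.7 and 49.2 CPM in WT and 117.8, 98.5 and 108.5 CPM in KD (log2 fold change 1.29 ± 0.19 without pairing, edgeR adjusted p = 0.00687). MOGS, a glucosidase that trims new N-glycans, rose by 0.92 with pairing (edgeR adjusted p = 0.00299), and UGGT1, the glucosyltransferase that recognises misfolded glycoproteins, fell (-0.80, edgeR adjusted p = 0.0316). SIL1 missed the threshold when KD replicate 3 was left out (edgeR adjusted p = 0.0555).

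Of 22 other translocon and oligosaccharyltransferase genes, DAD1 and RPN2, both subunits of the transferase, rose with pairing (0.63 and 0.48, edgeR adjusted p = 0.0205 and 0.0489). Of 21 other degradation genes, the ubiquitin-conjugating enzyme gene UBE2J1 rose (0.60, edgeR adjusted p = 0.0477). Of 12 tested genes of other ER stress sensors and related factors, the 1 counted as higher was CREB3L3, a relative of CREB3L2. It had 0, 5 and 0 expected counts in WT and 40, 157 and 103 in KD, so that it entered the test through KD alone, and its p is not read here. Cytosolic chaperones gave 1 rise (HSPA1A, which has a near-identical copy in HSPA1B) and 1 fall (DNAJB6) of 18, and mitochondrial chaperones 1 rise (HSPA9) of 10, all with pairing. With 1 of the pairs left out, the paired calls of UGGT1, DAD1, RPN2, UBE2J1, HSPA1A, DNAJB6 and HSPA9 were each lost at least once (edgeR adjusted p = 0.0574 to 0.252), and those of SIL1 and MOGS were kept.

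The list named for the ATF4 and CHOP arm had the highest median of these lists, 0.56 without pairing and 0.74 with it. Of its 28 genes, 2 rose without pairing (7.14%, against 1.75% of all tested genes) and 10 with it (35.7%, against 5.10%). None fell in either fit. The lists were chosen with earlier results of these data known, so these shares are described only. Whether PERK or another route lay behind them was not tested. WARS, a tRNA synthetase that interferon also induces, was at 313.0, 261.3 and 229.1 CPM in WT and 832.5, 951.6 and 942.0 CPM in KD (1.76, edgeR adjusted p = 0.00183). PPP1R15A, which encodes the eIF2-alpha phosphatase subunit GADD34, was at 109.5, 93.7 and 108.3 CPM in WT and 243.1, 213.1 and 220.1 CPM in KD (1.12, edgeR adjusted p = 0.012), a call lost without KD replicate 2, KD replicate 3, WT replicate 2 or WT replicate 3 (edgeR adjusted p = 0.0556 to 0.0854). DDIT3, which encodes CHOP, passed with pairing alone (1.68, edgeR adjusted p = 0.00276; 0.165 without). ATF4 itself was at 708.8, 367.3 and 419.0 CPM in WT and 654.4, 746.9 and 664.1 CPM in KD, and did not pass (paired 0.53, edgeR adjusted p = 0.143, or 0.00641 without the replicate 1 pair). The median of the 28 genes within pairs was 0.09, 1.02 and 0.76, lowest in replicate 1, while the 36 ER genes gave 0.10, 0.05 and 0.10. The difference between the 2 lists was not tested.

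**Figure D5:**
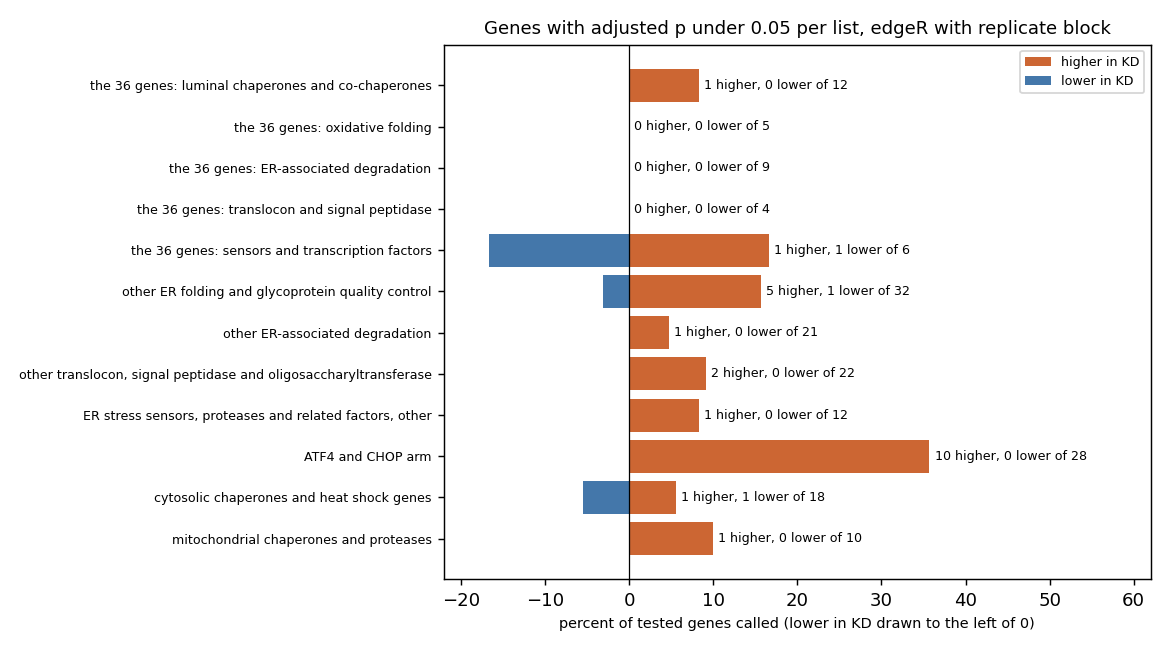
Share of tested genes in each list with an adjusted p under 0.05 in edgeR with the replicate block, rises in orange to the right and falls in blue to the left of 0; the first 5 bars are the 36 genes by role. Of all tested genes 5.10% rose and 4.42% fell in this fit. The ATF4 and CHOP arm has 10 rises of 28 genes, and 3 of the 5 role groups have no gene that passed. Those 3 groups hold 5, 9 and 4 genes, too few to set them apart from the background. The 1 rise among other ER stress sensors is CREB3L3, which entered the test through KD alone.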

How the data were processed

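RNA of 6 libraries of M14 cells was sequenced. The authors aligned reads to hg19 with STAR and deposited RSEM expected counts per gene, which are estimated counts that are neither scaled nor filtered. Expected counts were rounded and tested in R 4.3.3 with edgeR 4.0.16 (filterByExpr, TMM, quasi-likelihood test, Benjamini-Hochberg over 15605 genes, threshold 0.05). The SE was the absolute log2 fold change over the square root of F. The alternatives were DESeq2 1.42.0, limma-voom (limma 3.58.1), other scalings and filters, a replicate block, and libraries left out. No label names a pairing, and the replicate block was taken from these same data. Deviations from the group means over 8932 genes correlated at 0.607, 0.479 and 0.380 between WT and KD libraries of the same number. Each was above 0.1. Of the other 6 combinations, WT 2 with KD 3 (0.305) and WT 3 with KD 2 (0.198) were also above 0.1, so the matching of replicates 2 and 3 is less clear. The edgeR fits were also run on simulated data, without and with a replicate effect that followed the replicate number. Wrongly paired libraries were not simulated. Full values are printed for genes that passed with or without the block, for HSPA5, HSP90B1, XBP1, ATF6, ERN1 and EIF2AK3, and for other genes that were picked after their values were seen. From the other lists, at most the 2 largest rises and falls among genes that passed with at least 1 CPM were named, with ATF4 and DDIT3; PPP1R15A was added. The members and lists were chosen with earlier results of these data known. The 3 counts behind a floor cover counting error only. Promoters are RefSeq sequences on GRCh38.p14 and gene positions come from a GENCODE annotation on GRCh37.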

Additional observations from a re-analysis of the deposited data

How the results depend on the processing

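The call of no gene among the 36 without pairing held in every unpaired alternative, single libraries left out included, except that CREB3L2 fell without a low-count filter (1 lower, edgeR adjusted p = 0.0409). The replicate block gave 2 higher and 1 lower. Blocked alternatives chosen after seeing the data gave 4 higher with DESeq2, 5 with limma-voom and 1 with upper-quartile scaling, each with 1 lower. With blocked DESeq2 and limma-voom, DNAJB11 (adjusted p = 0.036 and 0.0305) and OS9 (0.0244 and 0.0382) were among those higher. DERL1 was so with blocked limma-voom alone (adjusted p = 0.0388). Blocked edgeR fits without the replicate 1, 2 or 3 pair gave 4, 1 and 1 higher, each with 1 lower. All tested genes passing in these fits are counted in the next paragraph, and more passed with blocked DESeq2 and limma-voom than with blocked edgeR. The counts among the 36 are too small to set them apart from that background. HSPA5 and CREB3L2 passed in all 7 blocked fits. The median log2 fold change of 0.09 became 0.06 with upper-quartile scaling, without (0.059) and with (0.056) the block, 0.122 and 0.118 in blocked fits without the replicate 1 or 2 pair, and 0.009 to 0.167 when single libraries were left out.

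All tested genes passing, 404, became 1486 with the block, 1507 with upper-quartile scaling and block, 999 with DESeq2 and 2158 with its block, 2222 with blocked limma-voom, 1103 without a filter, 137 at an adjusted p under 0.01, 1441, 1245 and 1504 in blocked fits without pair 1, 2 or 3, and 121 to 531 without single libraries. The 3 genes of other lists became 23 with the block, 19 with upper-quartile scaling and block, 10 with DESeq2 and 39 with its block, 5 with limma-voom and 42 with its block, 5 with at least 10 counts per library, 13 without a filter, 33, 15 and 20 without pair 1, 2 or 3, and 1 to 14 without single libraries. The 23 with the block include CREB3L3, which entered the test through KD alone. STAG2 ranged from -2.63 to -1.68 without single libraries. It missed the threshold without KD replicate 2 or 3 or WT replicate 2 or 3 (edgeR adjusted p = 0.0652 to 0.168).

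Small log2 fold changes changed sign. MANF (-0.01) was 0.079 with the block, 0.071, 0.043 and 0.048 with blocked DESeq2, limma-voom and upper-quartile scaling, 0.078 with limma-voom and 0.263 and 0.203 without pair 2 or 3. SEL1L (-0.03) was 0.059 with the block, 0.051, 0.013 and 0.028 in the same blocked fits, 0.095 with limma-voom and 0.224 and 0.11 without pair 1 or 2. In blocked fits without 1 pair, EDEM1 was 0.298, DERL2 -0.003 and ERN1 -0.009 (pair 1), SPCS3 -0.065 (pair 2), and SDF2L1 0.056 and SEC61B 0.053 (pair 3). Without single libraries the ranges were -0.504 to 0.029 for DNAJC3, -0.394 to 0.114 for SDF2L1, -0.024 to 0.282 for PDIA3, -0.191 to 0.312 for CALR, -0.08 to 0.368 for SYVN1, -0.456 to 0.651 for SEL1L, -0.178 to 0.215 for EDEM1, -0.121 to 0.225 for DERL2, -0.014 to 0.271 for ERN1, -0.307 to 0.18 for MANF, -0.463 to 0.057 for SEC61A1, -0.209 to 0.053 for SEC61B, -0.056 to 0.315 for SPCS3 and -0.31 to 0.162 for WFS1. None of these passed the test, and the cause of the changes was not tested. DERL3 had 24 to 63 expected counts per library and shares exon positions with SMARCB1, and the part of either was not tested.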
